A study of Mus musculus with 6 samples.

Results

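The 5 genes described here are Tmtc1, Tmtc2, Tmtc3 and Tmtc4, which make up the Tmtc family, and Gm15663, a non-coding transcript that starts at the 5′ end of Tmtc2 on the opposite strand. They were taken by symbol from the 32285 features of a single-nucleus RNA data set of mouse liver, and all 5 were found. Tmtc2 and Gm15663 were chosen by their higher UMI counts in knockout than in control stellate nuclei in earlier results of these data, and the other 3 for their kinship with Tmtc2, so the values of Tmtc2 and Gm15663 in stellate nuclei are given as a description, with no test. The knockout group had 3 mice with Plvap deleted in hepatic stellate cells by a Cre transgene under Lrat regulation, and the control group had 3 littermates. All 6 were male, 18 weeks old, fed chow and fasted for 12 hours overnight. For both groups the labels name the strain C57BL/6JBomTac, the allele Plvaptm1.1Salm, the transgene Tg(Lrat-cre)1Rshw and the background B6.126(Cg). They do not say whether the controls carried Cre, so an effect of the deletion and one of the transgene cannot be told apart.

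TMTC proteins are transmembrane enzymes of the endoplasmic reticulum that attach single mannose sugars to serine and threonine residues in the extracellular domains of cadherins and protocadherins, the adhesion proteins that hold cells together. This route is separate from that of POMT1 and POMT2, which start the long sugar chain on dystroglycan. Both use mannose carried on dolichol phosphate. Variants of TMTC2 have been linked to hearing loss in people, loss of Tmtc4 causes it in mice, and TMTC3 mutations cause a human brain malformation. TMTC2 has also been found with the calcium pump SERCA2 and the chaperone calnexin. Stellate cells store vitamin A and wrap the sinusoids of the liver. Plvap encodes the protein of the diaphragms that span caveolae and endothelial fenestrae.

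The 6 libraries, 1 per mouse, held 27297 barcodes and from 23153182 to 27199466 UMIs (unique molecular identifiers, each standing for 1 captured RNA molecule). After filtering, 25663 nuclei were kept. Of the distinct barcode sequences, 77 of 27220 occurred in more than 1 library, from 1 to 10 per pair of libraries. Clusters were named from marker genes. The stellate class held 2692 nuclei in 2 clusters, numbered 4 and 9, with all 14 stellate markers detected. Another cluster of 504 nuclei, led by Adamtsl2 and Grid1, also had all 14 markers but was kept apart because the mesothelial marker Wt1 was among its leading genes (the Adamtsl2/Grid1 nuclei). Summed over the list, stellate markers were at 29051 to 32141 CPM in the stellate class, 15846 to 21083 CPM in the Adamtsl2/Grid1 nuclei and 429 to 1424 CPM over all nuclei outside the stellate class, the Adamtsl2/Grid1 nuclei included. CPM is the share of all UMIs of a class, scaled to the same total in every mouse. Knockout 2 and control 1 stood apart from the other mice in hepatocytes, with 78.2% and 77.8% of them in a cluster that held at most 0.141% in any other mouse. Knockout 1 stood apart as well, with 72.5% of its hepatocytes in a cluster that held at most 1.55% in any other mouse. Plvap itself was at 234, 197 and 159 CPM in the stellate nuclei of knockouts 1, 2 and 3, against 248, 231 and 245 CPM in controls 1, 2 and 3 (log2 fold change -0.35, SE 0.142, adjusted p 1 by edgeR's quasi-likelihood test; unadjusted 0.0309). The sources used here do not say whether the counted reads fall in the deleted exons, so this level checks neither the deletion nor the labels.

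Tmtc2 (ENSMUSG00000036019) lies on chromosome 10 from 105187663 to 105574451 on the minus strand of mm10, in 12 exons over 387 kb. Gm15663 (ENSMUSG00000085282) lies on the plus strand from 105573953 to 105583874, so the 5′ ends of both genes overlap by 499 bases in that annotation, GENCODE M21. Tmtc3 is on the same chromosome, 4.70 Mb away, Tmtc1 is on chromosome 6 and Tmtc4 on chromosome 14. The promoter windows of the overlapping pair are shown because both transcripts were higher in the same nuclei. They run from 250 bases before to 50 after the RefSeq start on GRCm38.p6, written 5′ to 3′ on each gene's own strand. Capitals mark the 171 bases that both windows hold, from 105574430 to 105574600, which appear as reverse complements of each other.
Tmtc2 (chr10:105574430-105574729, minus strand): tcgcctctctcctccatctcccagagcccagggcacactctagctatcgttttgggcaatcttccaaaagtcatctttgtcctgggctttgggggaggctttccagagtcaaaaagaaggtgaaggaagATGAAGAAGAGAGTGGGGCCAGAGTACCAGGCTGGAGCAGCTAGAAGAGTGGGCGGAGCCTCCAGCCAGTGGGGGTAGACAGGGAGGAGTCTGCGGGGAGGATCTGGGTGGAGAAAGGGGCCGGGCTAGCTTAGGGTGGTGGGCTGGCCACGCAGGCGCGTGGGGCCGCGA
Gm15663 (chr10:105574301-105574600, plus strand): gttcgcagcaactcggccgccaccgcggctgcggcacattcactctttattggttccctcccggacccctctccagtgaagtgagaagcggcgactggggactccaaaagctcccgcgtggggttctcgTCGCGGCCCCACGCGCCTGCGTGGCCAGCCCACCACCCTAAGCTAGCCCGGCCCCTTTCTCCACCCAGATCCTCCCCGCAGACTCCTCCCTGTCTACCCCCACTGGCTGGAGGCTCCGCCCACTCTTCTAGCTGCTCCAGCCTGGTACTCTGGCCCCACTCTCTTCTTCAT
In RefSeq the starts lie 72 bases apart and the transcripts run away from each other. The Tmtc2 window has 10 CpG dinucleotides and the Gm15663 window 20, against a median of 7 over 32851 RefSeq promoter windows. GGGCGG, the core letters of a GC box, occurs once in each window on either strand, within the shared bases, and in 35.7% of all windows. TATAAA occurs in neither, and in 13.6% of all windows. CCAAT occurs in the Gm15663 window but not the Tmtc2 window, and in 37.4% of all windows.

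Tmtc2 was far higher in knockout than in control stellate nuclei. Its level was 4659.8, 5093 and 3970.1 CPM in knockouts 1, 2 and 3, against 197, 238 and 186 CPM in controls 1, 2 and 3, on totals over all genes. Every knockout lay above every control, with means of 4574 ± 566 CPM in knockouts and 207 ± 27.1 CPM in controls (SD, n = 3 each). The log2 fold change was 4.41 (SE 0.157), or 21.3-fold, without knockout 2 and control 1 it was 4.30, and without knockout 1 it was 4.38. In these nuclei Tmtc2 supplied 0.466%, 0.509% and 0.397% of all UMIs in the knockouts, against 0.0197%, 0.0238% and 0.0186% in the controls. Over all genes, 7 of 11438 passed an adjusted p of 0.05 in this class, or 0.0612%, and 5.41% had all 3 knockouts above all 3 controls; the choice of Tmtc2 and Gm15663 used this comparison, so nothing is read from their place in it.

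**Figure D1:**
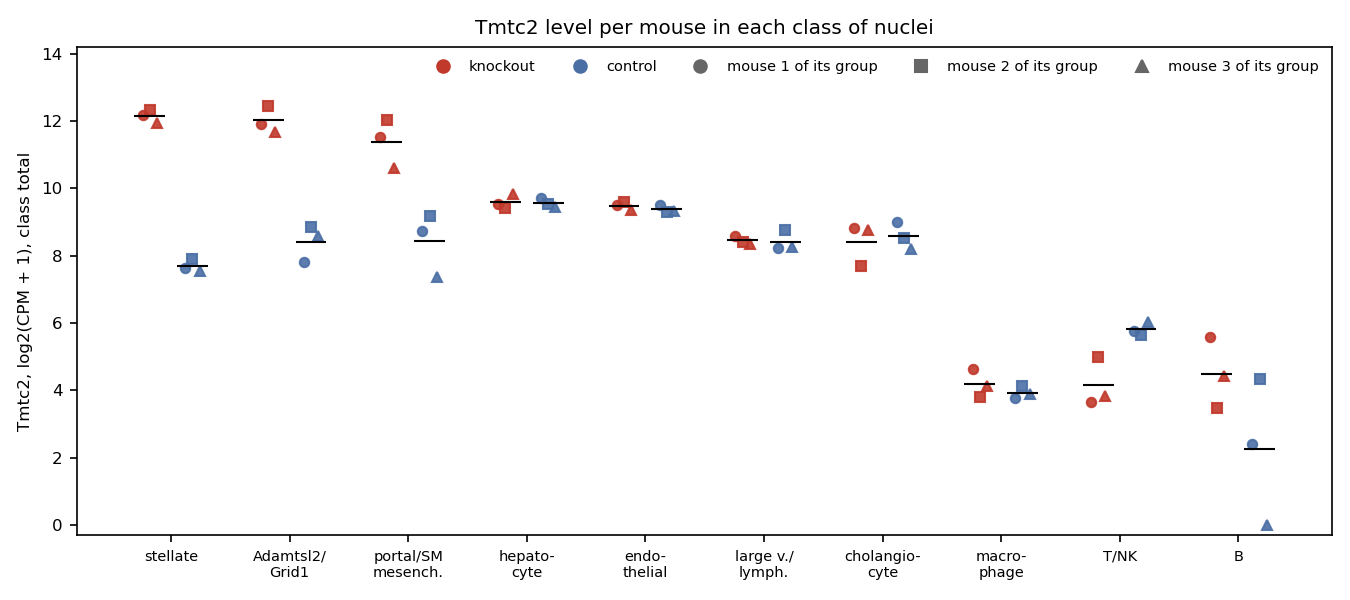
Tmtc2 level per mouse in each class of nuclei, as log2(CPM + 1) on totals over all genes; each point is 1 mouse and each bar the mean of 3, knockouts left of controls. Knockout and control points stand apart in the stellate class (4659.8, 5093 and 3970.1 against 197, 238 and 186 CPM), the Adamtsl2/Grid1 nuclei and the portal or smooth muscle mesenchymal nuclei, with knockouts above controls, and in T/NK cells (11.5, 30.7 and 13.2 against 53.6, 49.4 and 64.5 CPM), with knockouts below controls; they overlap in hepatocytes and endothelial cells.

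The difference was spread over nearly the whole stellate population. At least 1 Tmtc2 UMI was found in 97.5%, 97.9% and 97.8% of stellate nuclei in knockouts, against 32.8%, 41.3% and 32.2% in controls. Thinned to 1500 UMIs per nucleus, the shares were 95.1%, 94.4% and 92.1% in knockouts and 17.4%, 21.8% and 17.9% in controls, leaving out 4, 7 and 2 shallower nuclei in knockouts and 6, 4 and 1 in controls. The median knockout nucleus held 18, 18 and 15 Tmtc2 UMIs, and the median control nucleus held 0 in each mouse. A count of 10 or more was reached by 76.3%, 71.2% and 64.5% of knockout nuclei, against 0.503%, 2.40% and 1.49% of control nuclei. Conversely, 13, 9 and 9 knockout nuclei had no Tmtc2 UMI. With nuclei split evenly by depth into shallow, middle and deep, Tmtc2 was at 5142, 4291 and 4685 CPM in knockout 1, at 5139, 5209.7 and 4992 CPM in knockout 2 and at 3519.6, 3893 and 4217 CPM in knockout 3. Macrophage nuclei, which have little Tmtc2, had a UMI in 5.70%, 4.17% and 4.90% in knockouts and in 2.74%, 2.89% and 3.33% in controls. Their median depths were 4021 to 5255 UMIs, near the 4497 to 5798.5 of stellate nuclei. Those macrophage shares were higher in knockouts, without overlap (two-sided exact permutation p 0.1, the smallest that 3 against 3 allows). They overlapped once thinned to 1500 UMIs. The part of free RNA in the stellate difference was not tested.

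**Figure D2:**
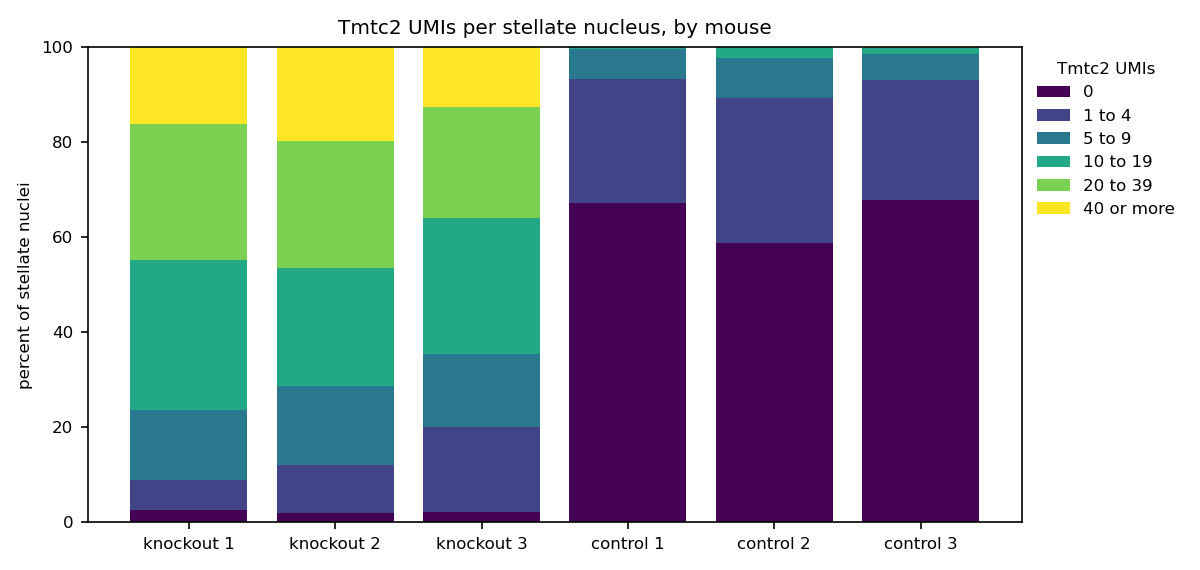
Percent of stellate nuclei by number of Tmtc2 UMIs in each mouse, knockouts left of controls. Nuclei with no UMI make up 2.55%, 2.05% and 2.20% in knockouts 1, 2 and 3, against 67.2%, 58.7% and 67.8% in controls 1, 2 and 3; no control nucleus reached 40 UMIs, against 16.3%, 19.9% and 12.7% of knockout nuclei.

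Both stellate clusters showed the difference, at different control levels. In cluster 4 Tmtc2 was at 4831, 5314 and 4144 CPM in knockouts and at 244, 325 and 252 CPM in controls, a log2 fold change of 4.06 (SE 0.162). In cluster 9 it was at 4241, 4565 and 3734 CPM in knockouts and at 82.6, 135 and 68.9 CPM in controls, a log2 fold change of 5.40 (SE 0.233). The control level was lower in cluster 9 than in cluster 4 in each of the 3 controls, while the knockout levels of the clusters were closer together. The Adamtsl2/Grid1 nuclei may in part have entered the comparison that chose Tmtc2, so they are also given with no test. They were at 3886, 5621 and 3269 CPM in knockouts and at 223, 460.2 and 380 CPM in controls, a log2 fold change of 3.45 (SE 0.259). This rested on 58, 70 and 70 nuclei in knockouts and on 24, 225 and 57 in controls. That effect minus the effect in the stellate class was -0.97 on the log2 scale (SE 0.146).

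Summed markers of some other cell types did not overlap between the groups in these nuclei, and those of the other types that were summed did. Large vessel, dendritic, neutrophil and proliferating markers were not summed by mouse in these nuclei. The summed level of the 10 hepatocyte markers, led by Alb, was 926 to 1740.1 CPM in knockout and 624 to 815 CPM in control stellate nuclei, with no overlap; all 10 had a UMI and 1 of them had every knockout above every control. The 12 endothelial markers summed to 157 to 203 CPM in knockouts and 146 to 155 CPM in controls. The 12 portal or smooth muscle markers summed to 165 to 245 CPM in knockouts and 99.5 to 149 CPM in controls. None of either list was at 0, and 3 endothelial and 2 portal markers had every knockout above every control. Of all genes tested in the stellate class 5.41% did. The macrophage, T/NK, B, cholangiocyte and mesothelial sums overlapped in this class, macrophage markers at 333 to 416 CPM in knockouts and 330 to 458 CPM in controls. In the Adamtsl2/Grid1 nuclei the hepatocyte markers summed to 1050.2 to 1707 CPM in knockouts and 669 to 894 CPM in controls. Of these 10 markers, 4 had every knockout above every control, as had 5.17% of all genes tested there. The 6 mesothelial markers there summed to 318 to 452 CPM in knockouts and 211 to 241 CPM in controls, with Msln, Upk3b, Upk1b and Lrrn4 at 0. The endothelial, macrophage, T/NK, B, cholangiocyte and portal or smooth muscle sums overlapped there. Tmtc2 in hepatocytes of the same knockouts was at 683 to 917 CPM, below its level in their stellate nuclei. The part of these markers in the Tmtc2 difference was not tested.

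Outside the stellate lineage Tmtc2 was measured in other nuclei of the same mice, and there it was tested. In controls it was highest in hepatocytes (762 ± 70.1 CPM) and endothelial cells (665 ± 50.6 CPM), whose ranges overlapped, then in cholangiocytes (390 ± 113 CPM), the Adamtsl2/Grid1 nuclei (354 ± 121 CPM) and large vessel or lymphatic endothelium (346 ± 75.8 CPM), which overlapped one another. Stellate nuclei followed at 207 ± 27.1 CPM, their range of 186 to 238 CPM overlapping that of the Adamtsl2/Grid1 nuclei, then T/NK cells (55.8 ± 7.79 CPM), macrophages (14.3 ± 1.98 CPM) and B cells (7.85 ± 10.1 CPM), the last pair overlapping (SD, n = 3 each). In knockouts the stellate class and the Adamtsl2/Grid1 nuclei (4258 ± 1219.6 CPM) stood first and overlapped, followed by hepatocytes (779 ± 123 CPM) and endothelial cells (716 ± 59.3 CPM).

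In hepatocytes Tmtc2 was at 737, 683 and 917 CPM in knockouts, against 839, 745 and 702 CPM in controls, and the groups overlapped, with or without knockout 2 and control 1 (log2 fold change -0.01, SE 0.201, adjusted p 1 by edgeR; 0.02 without knockout 1). In endothelial cells it was at 722, 773 and 655 CPM in knockouts, against 723, 628 and 644 CPM in controls, also overlapping (0.06, SE 0.107, adjusted p 0.999 by edgeR). Cholangiocytes (-0.13, SE 0.327), large vessel or lymphatic endothelium (0.00 to 2 decimals, SE 0.187) and macrophages (0.29, SE 0.243) did not pass either. None of the 5 genes that could be tested passed in any of these 5 classes with edgeR or DESeq2, and 1 of their tests, that of Tmtc1 in large vessel endothelium, had an unadjusted p under 0.05 with either, where 0% of genes passed in hepatocytes, endothelial cells, macrophages and cholangiocytes and 0.015% in large vessel endothelium. With no gene passing in 4 of the classes, edgeR gave 468, 495, 393 and 286 genes at an unadjusted p under 0.05 in hepatocytes, endothelial cells, macrophages and cholangiocytes, and DESeq2 called 22, 17, 8 and 1.

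In T/NK cells the knockouts were the lower group, without passing. Tmtc2 was at 11.5, 30.7 and 13.2 CPM in knockouts, against 53.6, 49.4 and 64.5 CPM in controls, so every knockout lay below every control, as did 4.56% of all genes tested there, of which 0.0152% passed. The log2 fold change was -1.65 (SE 0.386, unadjusted p 0.000184, adjusted p 0.303 by edgeR). It rested on 5, 11 and 6 UMIs in knockouts and 23, 16 and 23 in controls, and the shares of nuclei with a UMI overlapped, at 2.11%, 6.76% and 2.82% in knockouts and 3.89%, 7.09% and 6.25% in controls. With doublet calls kept the log2 fold change was -0.59, and with coarser clusters -0.20; with no low-count filter it passed, at an adjusted p of 0.0191 by edgeR.

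Portal or smooth muscle mesenchymal nuclei, which include fibroblasts and muscle cells of the portal tracts, numbered 12 to 30 per mouse and were not tested. Tmtc2 was at 2948, 4171 and 1563 CPM in knockouts, against 425, 578 and 163 CPM in controls, with no overlap. The share of all genes without overlap was not computed for this class, so how unusual that is cannot be said. Stellate markers in these nuclei summed to 15.4% to 20.1% of their stellate level in knockouts and 14.4% to 27.3% in controls. Tmtc2 stood at 63.3%, 81.9% and 39.4% of its stellate level in knockouts, against 216%, 243% and 87.4% in controls. In macrophages, T/NK cells and B cells of the knockouts, stellate markers stood at 0.467% to 0.859% of their stellate level and Tmtc2 at 0.201% to 1.01%. The part that stellate RNA or nuclei play in the portal value was not tested.

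Within classes Tmtc2 differed by cluster, as a description. Among large vessel endothelial nuclei, a cluster led by Vwf and Gpm6a had a median of 999 CPM over 5 mice, from 796 to 1276, whereas one led by Nrg1 and Mecom had 94.3 CPM over 6 mice, from 62.6 to 141. Among hepatocytes, nuclei led by Cyp2c38 and Cyp3a11 had a median of 1001 CPM over 4 mice and those led by Nrg4 and Hal 622 CPM over 4 mice.

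Gm15663, a non-coding RNA to which the annotation gives no function, was low throughout and, like Tmtc2, higher in knockout stellate nuclei. It had 24, 27 and 28 UMIs in knockouts 1, 2 and 3, against 0, 1 and 1 in controls 1, 2 and 3, or 9.43, 12.4 and 13.7 CPM in knockouts and 0, 0.506 and 0.434 CPM in controls. The 3 counts that an observed 0 allows correspond to 1.06 CPM in control 1. With the UMIs of each group pooled over its mice, this is a ratio of 41.3. Its exact 95% interval of 11.1 to 347 covers counting error only, not the spread between mice. It is no test, since the choice of Gm15663 used this comparison. The shares of stellate nuclei with a UMI were 3.92%, 5.25% and 5.87% in knockouts, against 0%, 0.299% and 0.248% in controls, where 0 of 597 nuclei allows a share of up to 0.503%. The 1 stellate nucleus with Gm15663 in control 2 had 12 Tmtc2 UMIs, and the 1 in control 3 had 0. All the 20, 23 and 24 knockout nuclei with a Gm15663 UMI also had Tmtc2, which only 2.55%, 2.05% and 2.20% of all stellate nuclei lacked in these mice. The knockout nuclei with Gm15663 averaged 40.2, 44.3 and 26.5 Tmtc2 UMIs, against 22.6, 24.4 and 19.5 in the knockout nuclei without Gm15663. They were also deeper, at medians of 4850, 5851 and 5107 UMIs against 4731.5, 4780 and 4764. The sources used here do not say whether strand was used in counting; without it, reads from the 499 overlapping bases cannot be told apart between the 2 genes. Outside stellate nuclei Gm15663 had 11, 9 and 4 UMIs in knockout and 13, 9 and 10 in control endothelial nuclei, and 5, 5 and 7 in knockout and 9, 7 and 18 in control hepatocytes. In the Adamtsl2/Grid1 nuclei it had 4, 1 and 3 UMIs in knockouts and 0, 2 and 0 in controls. Among the classes it passed the low-count filter in the stellate one only.

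The other enzymes of the family did not pass the test in stellate nuclei with edgeR (0.0612% of all genes did) or DESeq2. Of the 3, 1, Tmtc4, had an unadjusted p under 0.05 by edgeR, as had 503 of 11438 over all genes. Tmtc4 was at 19.2, 25.6 and 20 CPM in knockouts, against 16, 13.7 and 12.6 CPM in controls, with every knockout above every control, as for 5.41% of all genes tested there. Its log2 fold change was 0.55 (SE 0.207, unadjusted p 0.0196, adjusted p 1 by edgeR), and it was 0.24 with nuclei thinned to 1500 UMIs. Tmtc1 was at 26.3, 18.3 and 17.6 CPM in knockouts, against 31.2, 26.3 and 23.02 CPM in controls, and the groups overlapped (log2 fold change -0.42, SE 0.214, adjusted p 1 by edgeR). Tmtc3 was at 32.2, 41.6 and 34.6 CPM in knockouts, against 41.5, 37.4 and 40.4 CPM in controls, overlapping as well (-0.20, SE 0.156, adjusted p 1 by edgeR).

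**Figure D3:**
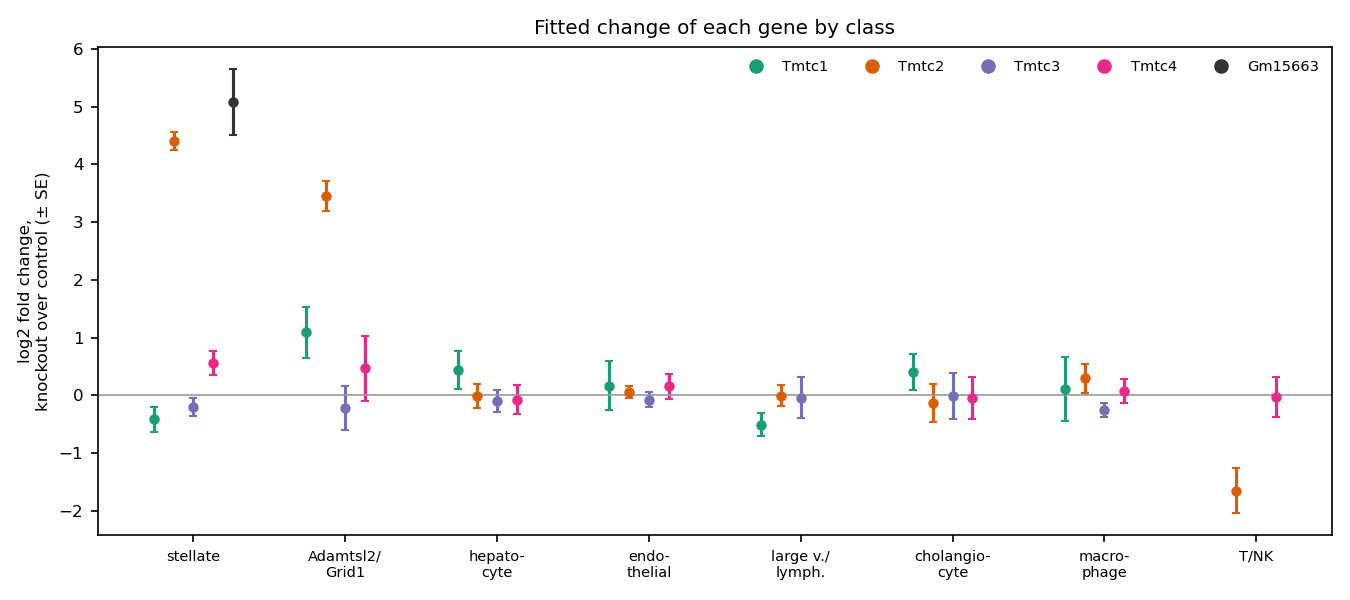
Fitted log2 fold change, knockout over control, of each gene in each tested class, with its standard error; genes too low to be tested in a class have no point. Tmtc2 stands at 4.41 in the stellate class and 3.45 in the Adamtsl2/Grid1 nuclei, and Tmtc1, Tmtc3 and Tmtc4 lie between -0.51 and 1.09.

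In the Adamtsl2/Grid1 nuclei Tmtc1 was at 73.5, 35.3 and 31.8 CPM in knockouts, against 26.8, 16.1 and 29 CPM in controls, with every knockout above every control. Its log2 fold change was 1.09 (SE 0.439, unadjusted p 0.021, adjusted p 0.999 by edgeR), in a class where 0.11% of genes passed and 5.17% had all knockouts above all controls. It was 0.61 without knockout 1 and 0.65 without control 2. The difference from its effect in the stellate class was 1.46 (SE 0.462, unadjusted p 0.00163, adjusted p 0.434 by edgeR), where 0.0515% of genes passed. For Tmtc3 and Tmtc4 this difference was -0.07 (SE 0.399) and -0.18 (SE 0.539), with an adjusted p of 1 for both by edgeR.

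Each of these genes had its own pattern over classes. Among the classes with at least 20 nuclei per mouse, Tmtc1 was highest in large vessel or lymphatic endothelium, at 289, 335 and 257 CPM in knockouts against 313, 488 and 446 CPM in controls (log2 fold change -0.51, SE 0.198, adjusted p 0.998 by edgeR). It was also high in portal or smooth muscle nuclei, at 221 to 432 CPM in knockouts and 263 to 399.9 CPM in controls. Tmtc1 was higher still in the few mesothelial nuclei, at 1229, 983 and 3231 CPM in knockouts 1, 2 and 3 (22 nuclei in all). Controls 2 and 3 had it at 2629.7 and 4776 CPM there (24 nuclei), and control 1 had no such nuclei. Those levels rested on only 1, 12 and 9 nuclei in knockouts 1, 2 and 3, and on 21 and 3 in controls 2 and 3. Tmtc1 was near 3 CPM in endothelial cells outside the large vessels. In macrophages Tmtc1 differed more between mice than between groups, at 314, 246 and 102 CPM in knockouts, against 323, 113 and 171 CPM in controls (0.11, SE 0.561); without knockout 1 the fitted difference was -0.24 and without control 2 it was -0.18. The mice were spread unequally over the macrophage clusters. The one led by Cd5l and Cd163 held 42%, 11.4% and 91.0% of macrophages in knockouts, against 11.1%, 89.9% and 79.2% in controls, and the one led by Il1b and Entpd1 held 26.6%, 77.01% and 0.681% in knockouts, against 69.7%, 1.71% and 5.39% in controls. Within the Cd5l and Cd163 cluster Tmtc1 was at 325, 211 and 105 CPM in knockouts and 288, 114 and 177 CPM in controls, so the higher and lower mice were the same as over all macrophages. In the Il1b and Entpd1 cluster it was at 357 and 250.01 CPM in knockouts 1 and 2, against 341 and 139.5 CPM in controls 1 and 3, the other mice having fewer than 20 nuclei there.

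Among the same classes the highest mean of Tmtc3 was in macrophages, at 47.1, 50.5 and 45.1 CPM in knockouts against 57.3, 55.7 and 54.2 CPM in controls, with every knockout below every control, as for 3.99% of genes there (log2 fold change -0.25, SE 0.121, adjusted p 0.999 by edgeR). Its lowest mean was in B cells, at 9.28 ± 2.17 CPM in knockouts and 3.69 ± 3.31 CPM in controls (SD, n = 3 each). Tmtc4 had its highest means in T/NK cells, at 39.1, 50.3 and 28.6 CPM in knockouts against 30.3, 52.5 and 36.4 CPM in controls, and in cholangiocytes, at 38.7, 37.2 and 37 CPM in knockouts against 48.7, 30.1 and 40.5 CPM in controls.

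**Figure D4:**
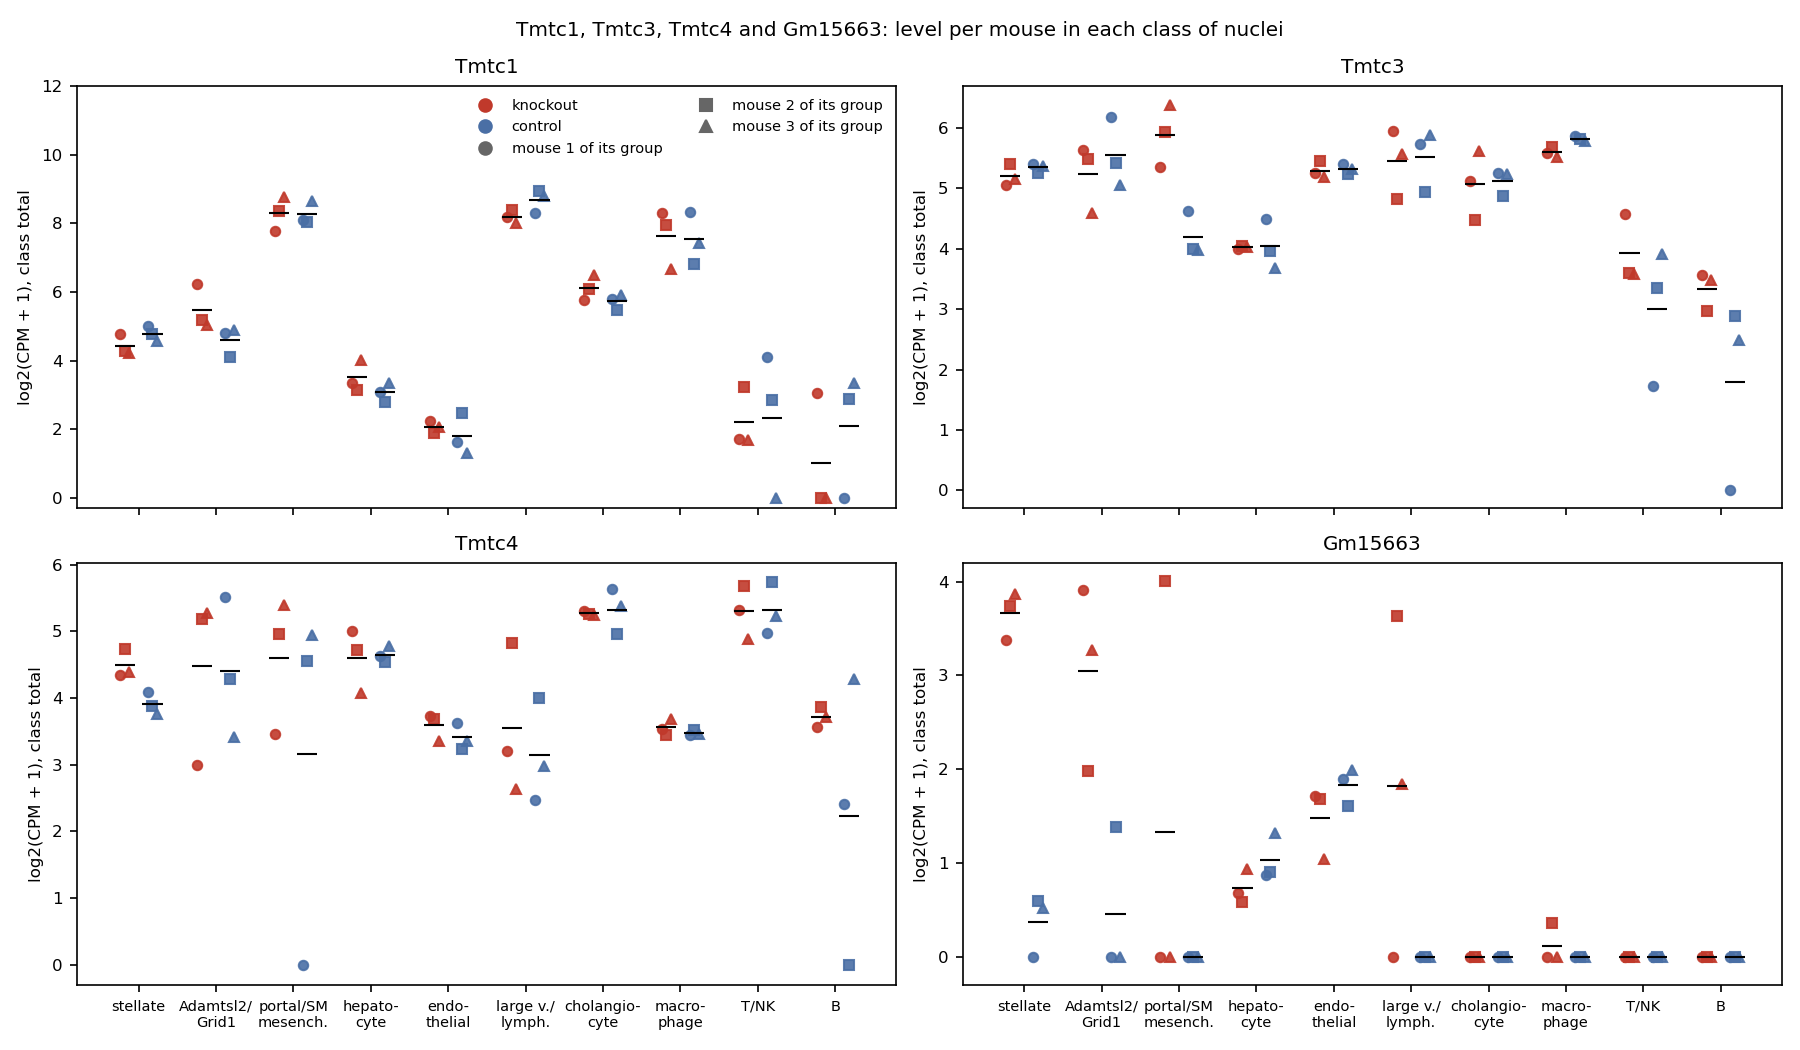
Levels of Tmtc1, Tmtc3, Tmtc4 and Gm15663 per mouse in each class, as log2(CPM + 1) on totals over all genes, knockouts left of controls, with bars for the mean of 3. Tmtc1 is high in portal, large vessel and macrophage nuclei, and Gm15663 has 9.43, 12.4 and 13.7 CPM in knockout stellate nuclei against 0, 0.506 and 0.434 CPM in controls.

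Over the means of 8 classes in control mice, Tmtc2 was most like Ube2e2 (Pearson r 0.98), with 4930556M19Rik (0.97) also among its closest, Tmtc1 like Fam168a (0.95), Tmtc3 like Iqsec2 (0.98) and Tmtc4 like Foxo3 (0.96). These genes were picked for their high r among all genes compared, over only 8 points. Such a choice can give a high r by itself, so nothing is read from it. Class means from the same libraries also share depth and free RNA.

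Genes of the related pathways did not pass in stellate nuclei, by edgeR or by DESeq2. Of 11 tested genes of the POMT route to dystroglycan, 6 were higher and 5 lower in knockouts and 0 passed, with a median log2 fold change of 0.01, against 0.00 over all genes. Of 11 tested genes that make dolichol-phosphate mannose, 5 were higher and 6 lower and 0 passed. Of 11 tested endoplasmic reticulum chaperone and stress genes, 2 were higher and 9 lower and 0 passed, with a median of -0.13; the SERCA2 gene Atp2a2 was at 167 ± 22.9 CPM in knockouts and 184 ± 9.97 CPM in controls, on totals scaled by TMM (SD, n = 3 each). At an unadjusted p under 0.05 edgeR had 1 gene in each of these 3 lists, and 503 of 11438 over all genes, of which 0.0612% passed.

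Of 28 tested cadherins and protocadherins, the acceptors of TMTC mannose, 11 were higher and 17 lower in stellate nuclei and 0 passed, with a median of -0.06. By edgeR 3 were at an unadjusted p under 0.05, against 503 of 11438 over all genes. In the Adamtsl2/Grid1 nuclei, where 0.11% of all genes passed, 1 of 8 did: Pcdh15, a protocadherin best known from the tip links of hair cells of the inner ear, fell to 247, 141 and 299 CPM in knockouts, against 415, 581 and 573 CPM in controls, on TMM-scaled totals. Its log2 fold change was -1.22 (SE 0.237, adjusted p 0.0422 by edgeR). With a mouse left out the adjusted p ranged from 0.00529 to 0.561, and it did not pass without knockout 1 (0.198), knockout 2 (0.16), control 2 (0.561) or control 3 (0.233), all by edgeR. Pcdh15 in stellate nuclei was at 322, 279 and 284 CPM in knockouts, against 357, 494 and 445 CPM in controls, also without overlap (-0.55, SE 0.137, adjusted p 0.617 by edgeR). In stellate cluster 4 the groups overlapped, at 398, 323 and 337 CPM in knockouts and 346, 682 and 502 CPM in controls. In cluster 9 they did not, at 123, 202 and 220 CPM in knockouts and 368, 245 and 288 CPM in controls. These cluster values are on totals over all genes. All knockouts lay below all controls for 4.65% of genes tested in stellate nuclei and 4.23% of those tested in the Adamtsl2/Grid1 nuclei.

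The difference was next looked for in genes near Tmtc2. Within 2 Mb of its ends 68 genes are annotated, 25 are among the features and 5 besides Tmtc2 and Gm15663 were tested in stellate nuclei. Of these 5, 0 passed by edgeR or DESeq2. By edgeR 1 had an unadjusted p under 0.05, against 503 of 11438 over all genes. The nearest tested, Mettl25 at 189 kb and Ccdc59 at 267 kb, had log2 fold changes of 0.32 (SE 0.228) and 0.17 (SE 0.205). Lin7a, a scaffold gene of cell junctions 1697 kb away, was at 17.5, 6.66 and 16.4 CPM in knockouts, against 31.3, 29.1 and 35 CPM in controls, on TMM-scaled totals, with no overlap (-1.23, SE 0.277, unadjusted p 0.000842, adjusted p 0.489 by edgeR). All knockouts lay below all controls for 4.65% of genes tested in stellate nuclei.

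**Figure D5:**
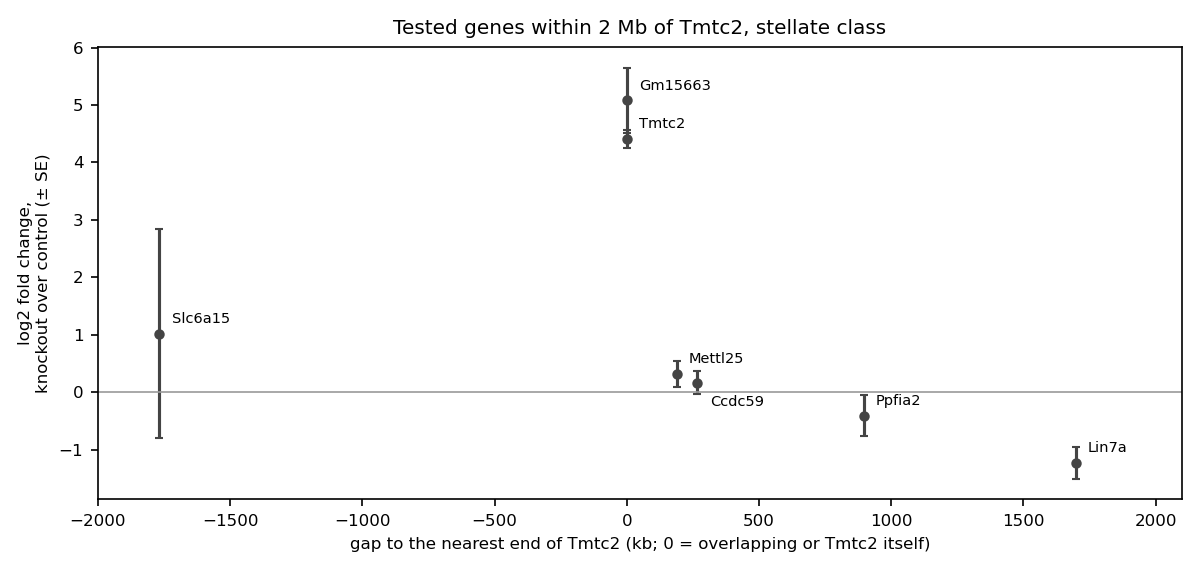
Log2 fold change, knockout over control, with its standard error, of the tested genes within 2 Mb of Tmtc2 in the stellate class, by the gap to the nearest end of Tmtc2 in kb. Tmtc2 and Gm15663 stand at 4.41 and 5.08, a fit that for Gm15663 rests on control counts of 0 and 1, and Lin7a at -1.23.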

How the data were processed

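Liver nuclei of 6 mice were profiled with 10x Chromium 3′ chemistry, version 3.1, per the labels' protocols. Cell Ranger 7.0.1 and mm10 stand in the submitters' processing notes, and the file headers give 7.1.0. The deposited matrices hold raw UMI counts per gene and barcode, per the file headers; the sources used here do not say whether introns or strand were used. Filters asked for 500 genes, 1000 UMIs, under 5% mitochondrial UMIs and no scrublet doublet call (from 2.25% to 3.72% per library). Clusters (Leiden resolution 1, 30 components, 15 neighbours, scanpy 1.11.5, leidenalg 0.10.2) were named from markers. The variable genes behind them left out 10 genes. Those were the 5, the deleted Plvap, and Rbm46, Rbm46os, Gm30097 and Gm12153, which the stellate comparison was already known to call. Counts were summed per mouse and class, and classes with at least 20 nuclei in every mouse were tested with edgeR 4.0.16's quasi-likelihood test (TMM, filterByExpr, R 4.3.3), Benjamini-Hochberg adjusted over all genes of a class at 0.05. The fit was first tested on simulated data of the stellate class with 11430 genes. It recovered 82% of 100 genes with a true log2 fold change of 1 and 100% of 100 genes with 2. It also called 11 unchanged genes. Levels are CPM on totals over all genes unless TMM scaling is named. Shares were compared by two-sided exact permutation, whose smallest p with 3 against 3 is 0.1. Positions are from GENCODE M21 (mm10), with 32158 of 32285 identifiers matched, and promoters from RefSeq. The genes, lists and tests were chosen with earlier results of these data known. The named genes are the 5, the 3 most abundant of each list and any that passed, the neighbours within 2 Mb, and the most alike genes; the text prints part of these. Alternatives were other scalings, DESeq2 1.42.0, no low-count filter, thinning to 1500 UMIs, a minimum of 2000 UMIs, doublets kept, Leiden 0.5 and 2, each mouse left out and, added after seeing the data, control 1 and knockout 2 left out together. Replicate numbers follow accession order and pair no mice; separate mice are the replicates. A few named genes are not reported here.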

Additional observations from a re-analysis of the deposited data

Results flagged for a closer look

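Tmtc2 differed in direction between classes, with every knockout above every control in stellate nuclei (log2 fold change 4.41) and in the Adamtsl2/Grid1 nuclei (3.45), and every knockout below every control in T/NK cells (-1.65, adjusted p 0.303 by edgeR). The difference between these effects was not tested.

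Portal or smooth muscle mesenchymal nuclei, too few for a test, held Tmtc2 at a mean of 2894 CPM in knockouts and 389 CPM in controls. The groups did not overlap, but the share of all genes without overlap was not computed for this class. Tmtc3 in the same nuclei was at a mean of 60.8 CPM in knockouts and 17.8 CPM in controls, from 4, 8 and 4 UMIs in knockouts and 2, 2 and 1 in controls.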

How the results depend on the processing

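No paired analysis was possible because the replicate numbers only follow accession order and pair no mice. Of the values set beside an alternative, 592 were counted as the same. A tested value had to keep its direction and its side of the threshold. An untested value had to keep its direction and stay within its SE, or its SD for a share. A count of genes had to stay within 1.5 times. Tmtc2 in stellate nuclei, which was untested, stayed within its SE with a mouse left out (4.34 to 4.52). Of the rest, 44 changed direction, 40 moved beyond their error or, for a count of genes, beyond 1.5 times, and 1 passed only under the alternative. With a mouse left out the fitted log2 fold change of Gm15663 in stellate nuclei ranged from 4.43 to 5.52 and that of Tmtc2 in the Adamtsl2/Grid1 nuclei from 3.23 to 3.72; without control 1 and knockout 2 together they were 4.41 and 3.03. Thinned to 1500 UMIs, the difference in the share of stellate nuclei with a UMI, knockout minus control, was 74.8 percentage points for Tmtc2, 0.735 for Tmtc4 and 1.94 for Gm15663. The effect in the Adamtsl2/Grid1 nuclei minus that in stellate nuclei ranged, with a mouse left out, from -1.13 to -0.85 for Tmtc2, from -0.32 to 0.17 for Tmtc3, from -0.59 to 0.20 for Tmtc4 and from -2.20 to 1.55 for Gm15663 (the highest without control 2), and thinned it was 0.29 for Tmtc3 and 0.30 for Tmtc4. Small differences that did not pass changed sign. In hepatocytes, thinned values were -0.18 for Tmtc1 and 0.02 for Tmtc2, Tmtc2 was 0.032 on library size alone, and with a mouse left out Tmtc2 ranged from -0.18 to 0.10, Tmtc3 from -0.23 to 0.090 and Tmtc4 from -0.32 to 0.14. In endothelial cells Tmtc3 was 0.10 thinned, and Tmtc1 ranged from -0.066 to 0.77. In large vessel endothelium Tmtc2 was 0.0061 on library size alone, 0.016 and 0.0078 at Leiden 0.5 and 2 and 0.12 thinned, ranging from -0.12 to 0.22, and Tmtc3 from -0.31 to 0.24. In macrophages Tmtc1 ranged from -0.24 to 0.60, and Tmtc4 was -0.24 thinned. In T/NK cells Tmtc4 was 0.045 with doublet calls kept and ranged from -0.22 to 0.20. In cholangiocytes Tmtc3 was 0.10 with doublet calls kept, 0.0036 on library size alone and 0.00024 at a minimum of 2000 UMIs, with ranges of -0.33 to 0.15 for Tmtc2, -0.28 to 0.24 for Tmtc3 and -0.26 to 0.14 for Tmtc4, and in the Adamtsl2/Grid1 nuclei Tmtc3 ranged from -0.42 to 0.043. Genes past an adjusted p of 0.05 with no low-count filter numbered 77 in stellate, 17 in Adamtsl2/Grid1, 58 in endothelial, 16 in large vessel, 35 in macrophage, 38 in T/NK and 11 in cholangiocyte nuclei. DESeq2 called 12 in stellate nuclei, 22 in hepatocytes, 17 in endothelial, 2 in large vessel, 8 in macrophage and 1 in cholangiocyte nuclei. Leiden 0.5 gave 1 in endothelial nuclei, thinning gave 1 in macrophages and 1 in B cells, and a minimum of 2000 UMIs gave 1 in B cells. With a mouse left out the counts ran from 4 to 13 in Adamtsl2/Grid1 nuclei (most without knockout 3), from 0 to 7 in endothelial and in cholangiocyte nuclei (most without control 1), from 0 to 1 in large vessel nuclei and from 1 to 45 in T/NK cells (most without control 3). The cause of these shifts was not tested. Depth limits Gm15663 and all values in portal nuclei.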

Other observations

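Slc6a15, an amino acid transporter gene whose end lies 1768 kb from Tmtc2, split the mice across the groups, an observation chosen after its values were seen. In hepatocytes it was at 61.6, 0.301 and 54.02 CPM in knockouts 1, 2 and 3, against 0, 0.124 and 51.9 CPM in controls 1, 2 and 3. Endothelial nuclei had it at 32.5, 0.247 and 25.9 CPM in knockouts, against 0, 0.228 and 29.3 CPM in controls, and stellate nuclei had it at 31.03, 0 and 43.4 CPM in knockouts, against 0, 0 and 35.6 CPM in controls. Tmtc2 in stellate nuclei did not follow that split, at 5093 CPM in knockout 2, where Slc6a15 was at 0, and at 186 CPM in control 3, where it was at 35.6 CPM.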
